A study of Homo sapiens with 6 samples.

Results

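The 7 genes described here encode proteins classed as moving phospholipids between the leaflets of a membrane, or as regulating such proteins. They are the phospholipid scramblases PLSCR1, PLSCR2, PLSCR3 and PLSCR4, the scramblases XKR8 and ANO6, and TMEM30A, the subunit that most flippases need. They were taken by symbol from a list and make up 7 of the 62710 Ensembl genes in the expression table. No measured value entered the rule that picks them, though the list was chosen with earlier results of these data known. The study asked how IFNβ, a type I interferon, alters gene expression in HT1080 cells, an established human fibrosarcoma line, in work on ferroptosis and tumor cell death. RNA was sequenced from 3 libraries of untreated HT1080 cells and 3 libraries of HT1080 cells that had received IFNβ at 20 ng/mL during 24 h. The labels name human IFNβ, whereas the RNA sequencing methods of the paper name mouse IFNβ. All libraries come from the same cell line. The paper states for its in vitro work as a whole that replicates were biological and independent, while the labels do not tie each library to a culture of its own, so p-values measure the spread between these libraries.

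Phosphatidylserine is kept on the inner leaflet of the plasma membrane by flippases, which are P4-ATPases paired with a CDC50 subunit such as TMEM30A. Scramblases let phospholipids pass in both directions, which exposes phosphatidylserine on the cell surface, where it serves as a signal for clotting and for the engulfment of dying cells. ANO6 (TMEM16F) is opened by calcium, XKR8 acts in cells that undergo apoptosis, and the PLSCR proteins are palmitoylated calcium-binding proteins, of which PLSCR1 is a long-known interferon-stimulated gene with antiviral roles and PLSCR3 is found in mitochondria.

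Values are FPKM, fragment numbers divided by a length assigned to each gene and by the size of the library. Levels were compared between genes on that basis, so such comparisons depend on the assigned lengths, whose annotation is not given. The numbers of fragments that the authors divided by, recovered from the values, were between 22848104 and 32915500 per library. The IFNβ-treated libraries carried a strong interferon response, since ISG15, IFIT1, MX1 and OAS1 were all higher, ISG15 by 138-fold. The mesenchymal markers VIM, CDH2, FN1 and SPARC were present in every library and summed to between 749 and 822 FPKM. Each differed between the groups by adjusted p, with VIM lower after IFNβ (log2 fold change -0.29) and the other 3 higher (0.16 to 0.51). The 6 markers of epithelial, leukocyte and endothelial cells summed to between 0.208 and 0.372 FPKM per library, most of it the endothelial PECAM1 (0.188 to 0.327 FPKM).

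PLSCR1 (ENSG00000188313, chr3:146515180-146544864, minus strand, GRCh38), PLSCR2 (ENSG00000163746, chr3:146391421-146495991) and PLSCR4 (ENSG00000114698, chr3:146192339-146251179) lie in 1 cluster on the same strand. Their promoters, from RefSeq on GRCh38.p14, were searched on both strands, from 250 bases before to 50 bases after each start, for the core of the interferon-stimulated response element, a pair of GAAA repeats with 2 bases between them. The sequence TTCNNNGAA, a STAT site, was searched in the same way. The following windows of at most 30 bases, read 5′ to 3′ on the gene's strand, are shown because they hold the only spaced repeats found at the starts of the 2 members that were differentially expressed, beside the PLSCR2 stretch that aligned to the first. Capitals mark the match or, for PLSCR2, the bases aligned to it.
PLSCR1, response element core, chr3:146544667-146544696: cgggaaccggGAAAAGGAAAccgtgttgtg
PLSCR2, bases aligned to that window, chr3:146469687-146469715: cagggaccagGGGAGGGAAGccttgttgt
PLSCR1, GAAANGAAA, chr3:146544633-146544662: taagattcagGAAACGAAAccaggagccgc
PLSCR4, GAAANGAAA on the other strand, chr3:146250641-146250670: ggggcggcccTTTCGTTTCgctctgcgtga

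PLSCR1 alone among the members with a promoter in the table held the response element core. It was present in 3.57% of all 35116 promoters, and in a promoter of 4.38% of the 27305 genes. The PLSCR1 match ended 70 bases before the first of its 2 RefSeq starts. In GENCODE release 29, 4 of the 19 annotated PLSCR1 transcripts start at or upstream of it. Another 11 start downstream of it, within the first exon of a chosen transcript. Only starts were compared, so whether the site lies in an exon of the 4 was not checked. The repeat with 1 base between, GAAANGAAA, was added after the PLSCR1 promoter had been seen. It ended 37 bases before the start both in PLSCR1 and at the second start of PLSCR4, and was present in 3.12% of promoters and 3.87% of genes. TTCNNNGAA was found in PLSCR1, from 19 bases after its first start, and only at the first start of PLSCR4 and the second of PLSCR2. It was present in 7.66% of promoters and 9.38% of genes. PLSCR3, XKR8 and ANO6 held none of these 3 sequences, and TMEM30A was not searched.

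The promoters at the first listed starts of PLSCR1 and PLSCR2 could be aligned over 99 bases each, with 72 of 97 aligned bases identical (74.2%). The PLSCR2 promoter used, chr3:146469562-146469811, lies inside the gene, and the promoter at its second start was not aligned. At the 10 bases of the PLSCR1 core match, 6 were identical in PLSCR2. A match is a description of the letters in the window, and binding of a factor was not measured.

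PLSCR1 mRNA had the largest fold change of the 5 members tested. It stood at 16.0, 16.0 and 15.9 FPKM in the untreated libraries and at 147, 145 and 151 FPKM after IFNβ. The groups did not come near each other, and the untreated values differed little among themselves (15.9 ± 0.0458 against 148 ± 2.87 FPKM, mean ± S.D., n = 3 each). The level was 9.28-fold higher, with a log2 fold change of 3.21 on log2(FPKM + 0.1) (SE 0.02, 95% interval 3.16 to 3.25, limma adjusted p = 2.7e-09). Between 1580 and 19676 fragments per library lay behind these values. Among all genes tested, PLSCR1 was at rank 99 of 20716 by log2 fold change. By level, it moved from rank 2863 of 62710 in untreated cells to rank 163 after IFNβ. In bulk RNA, a change in the share of cells that express a gene and a change in RNA per cell cannot be told apart.

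PLSCR4, which encodes a scramblase family member with a similar calcium-binding region, rose from a lower level. Its values were 1.64, 1.67 and 1.70 FPKM in untreated cells and 4.07, 3.82 and 4.34 FPKM after IFNβ, with no overlap between the groups. This was a 2.44-fold higher level (1.67 ± 0.0285 against 4.08 ± 0.261 FPKM, n = 3 each). The log2 fold change was 1.23 (SE 0.06, 95% interval 1.09 to 1.38, limma adjusted p = 3.0e-05). The fragments numbered between 159 and 531 per library. With a pseudocount of 1 in place of 0.1, the log2 fold change was 0.92, below the fold threshold for a DEG.

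PLSCR2 was at the edge of detection in every library. It was listed at 0 in 2 untreated libraries and 1 IFNβ-treated library, and at 0.0119 FPKM in the other untreated library and 0.0344 and 0.0244 FPKM in the other 2 IFNβ-treated libraries. These values stand for at most 3 fragments, so no fold is given, and its mean was below the 0.1 FPKM needed for the test. Between its neighbours PLSCR4 and PLSCR1, at 140 kb and 19.2 kb from them, it was therefore the gene of the cluster whose response was not detectable at this depth, while PLSCR5, 31.7 kb beyond PLSCR1, was listed at 0 in all libraries. PLOD2, a collagen lysyl hydroxylase 28.7 kb beyond PLSCR4, rose by 0.22 on the log2 scale (21.2 ± 0.625 to 24.8 ± 0.779 FPKM, n = 3 each, limma adjusted p = 0.0030).

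PLSCR3 (ENSG00000187838, chr17:7389727-7394843, minus strand), the mitochondrial member, was also below the level tested. The untreated libraries had 0.0309, 0.0476 and 0.0643 FPKM, and the IFNβ-treated libraries had 0.0344, 0.212 and 0.110 FPKM. The groups overlapped, and between 2 and 15 fragments lay behind each value. Without the filter on low levels, the log2 fold change was 0.49 with a 95% interval of -0.33 to 1.31 (limma adjusted p = 0.46), an interval that spans both directions. In GENCODE release 29, 76.3% of the exon bases of PLSCR3 also belong to TMEM256-PLSCR3, a readthrough gene on the same strand, which itself held between 1 and 5 fragments per library. The level of PLSCR3 is therefore uncertain, since how fragments in shared exons were counted is not given in the sources used here.

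**Figure D1:**
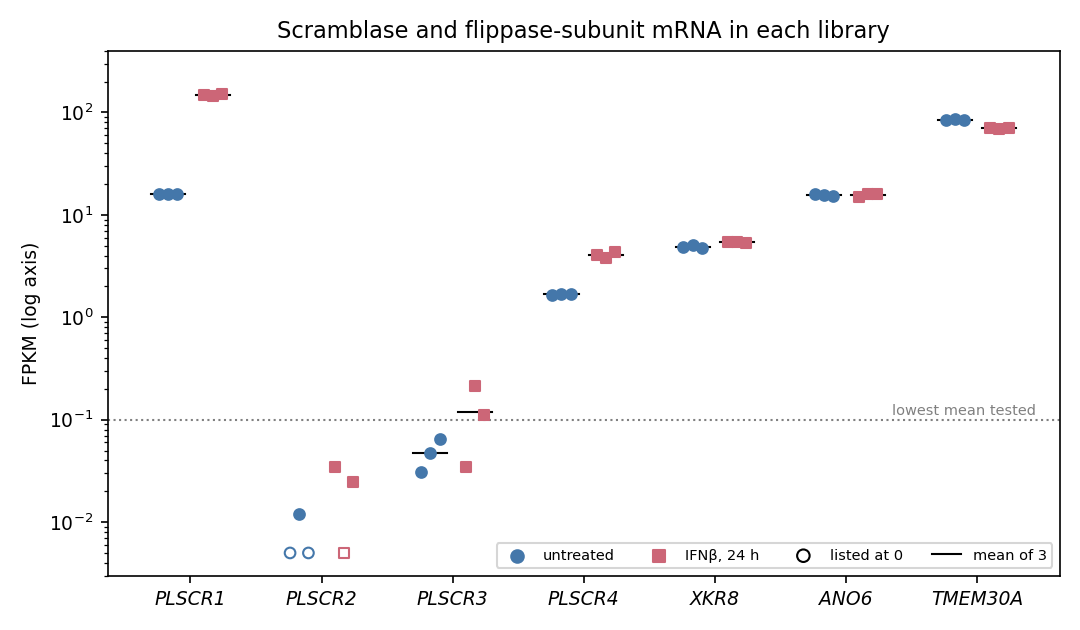
FPKM on a log axis for each of the 7 genes, with 1 point per library (circles, untreated; squares, IFNβ; open symbols, listed at 0 and drawn at the bottom) and a line at the mean of 3 where no library was at 0. PLSCR1 moves from about the level of ANO6 to above TMEM30A, PLSCR4 also separates, and PLSCR2 and PLSCR3 lie around or under the dotted line of 0.1 FPKM.

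XKR8 (ENSG00000158156, chr1:27959462-27968096, plus strand) showed a small difference. Its values were 4.81, 5.12 and 4.75 FPKM in untreated cells and 5.37, 5.46 and 5.29 FPKM after IFNβ. The ranges did not overlap, though the highest untreated library was close to the lowest treated one. The log2 fold change was 0.13 (SE 0.04, 95% interval 0.04 to 0.23, limma adjusted p = 0.048), which passed the adjusted p threshold and not the fold threshold. In 10 of 16 alternatives the adjusted p was 0.05 or higher, up to 0.13. Among these were 5 fits without 1 library, with log2 fold changes of 0.12 without untreated replicate 1, 0.11 without untreated replicate 3, and 0.13, 0.12 and 0.14 without IFNβ replicates 1, 2 and 3.

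ANO6 (ENSG00000177119, chr12:45215987-45440404, plus strand) gave no detectable difference. It stood at 15.9, 15.6 and 15.3 FPKM in untreated cells and at 14.8, 16.0 and 15.8 FPKM after IFNβ, so the groups overlapped. The log2 fold change was -0.01, with a 95% interval of -0.09 to 0.08 (limma adjusted p = 0.89).

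TMEM30A (ENSG00000112697, chr6:75252924-75284968, minus strand), also called CDC50A, takes P4-ATPases out of the endoplasmic reticulum and was the member with the highest level in untreated cells. It fell in every treated library. Its values were 83.6, 86.3 and 85.2 FPKM in untreated cells and 70.3, 69.4 and 70.8 FPKM after IFNβ, with no overlap. The ratio of the means was 0.826 (85.0 ± 1.35 against 70.2 ± 0.741 FPKM, n = 3 each). The log2 fold change was -0.28 (SE 0.02, 95% interval -0.32 to -0.23, limma adjusted p = 1.1e-04). In all 16 alternatives it was lower with an adjusted p under 0.05, with log2 fold changes of -0.29 to -0.26.

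Of the 7 genes, 5 passed the filter of a mean of 0.1 FPKM, and 2 of these 5, PLSCR1 and PLSCR4, were DEGs (adjusted p under 0.05 with a log2 change of 1 or more in either direction), both higher. Among the 20716 genes tested, 4.22% were DEGs and 3.49% were DEGs that were higher. By adjusted p alone, 4 of the 5 passed, against 32.7% of all genes, and 1 of these 4 was lower, against 17.5% of all genes. The median log2 fold change of the 5 was 0.13, and that of all genes tested was 0.00.

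The order of the 2 most abundant members differed between the groups. In untreated cells the order by mean FPKM was TMEM30A, PLSCR1, ANO6, XKR8, PLSCR4, PLSCR3 and PLSCR2. PLSCR1 and ANO6 were only just separated there, at 15.9 ± 0.0458 and 15.6 ± 0.271 FPKM (n = 3), a ratio of 1.02, and TMEM30A was 5.33-fold above PLSCR1. After IFNβ, PLSCR1 came first, 2.11-fold above TMEM30A, and the order of the others did not change. The ranges of neighbours in each order did not overlap, although for PLSCR3 and PLSCR2 after IFNβ they met within a few fragments. These ranges show the spread between libraries and do not cover error in the lengths assigned to the genes.

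The ratio of PLSCR1 to each other member was taken within a library to compare their responses directly. PLSCR1 stood at 0.191, 0.185 and 0.187 times TMEM30A in the untreated libraries and at 2.10, 2.10 and 2.13 times after IFNβ, a difference of 3.49 on the log2 scale. The difference was 3.22 against ANO6, 3.08 against XKR8, 1.93 against PLSCR4 and 2.19 against PLSCR3. Each ratio was higher in 3 of 3 treated libraries than in any untreated one. With 3 libraries against 3, the two-sided exact permutation p was 0.10 for each of the 5 ratios and 0.10 after adjustment, the smallest that this design allows. The ratio to PLSCR3 rests on few fragments, and its difference ranged from 1.47 to 2.79 on the log2 scale when 1 library was left out. It also depends on how fragments in the 76.3% of PLSCR3 exon bases shared with TMEM256-PLSCR3 were counted, which is not given. PLSCR2 was at 0 in some libraries and got no ratio.

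**Figure D2:**
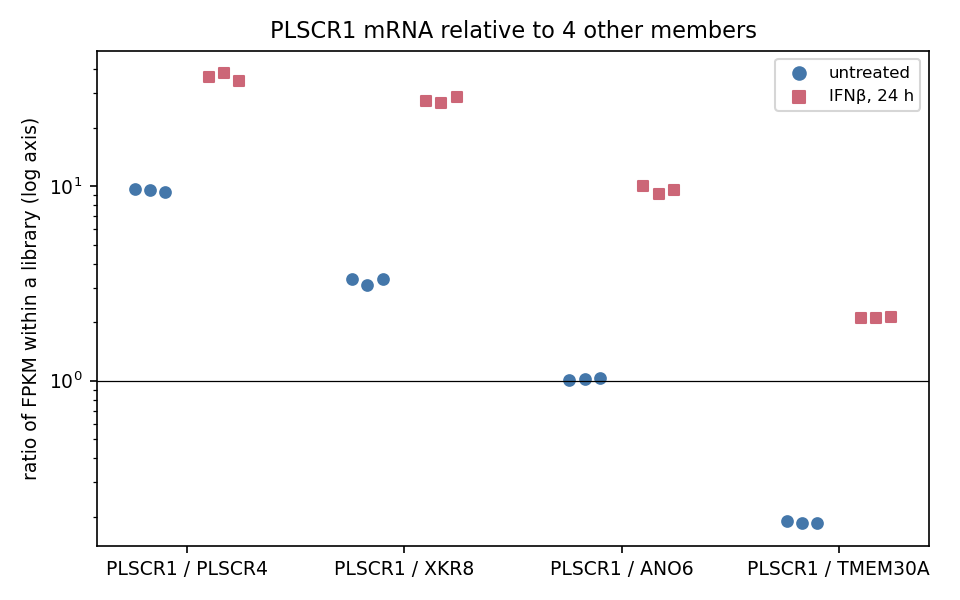
Ratio of PLSCR1 FPKM to that of PLSCR4, XKR8, ANO6 and TMEM30A within each library, on a log axis (circles, untreated; squares, IFNβ; the line marks equal levels). The ratio to TMEM30A crosses the line, from between 0.185 and 0.191 to between 2.10 and 2.13, and the ratio to PLSCR4 shifts least of the 4.

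By the listed values, PLSCR1 already made up most of the PLSCR mRNA before treatment. Its share of the summed FPKM of PLSCR1 to PLSCR4 was 90.2% ± 0.250 in untreated cells and 97.2% ± 0.0962 after IFNβ (n = 3 each, exact permutation test, two-sided, p = 0.10). Of the summed level of all 6 scramblases, its share was 41.8% ± 0.287 in untreated cells and 85.5% ± 0.390 after IFNβ (same exact test, p = 0.10). The summed level itself was 38.3, 38.4 and 37.8 FPKM in the untreated libraries and 172, 171 and 177 FPKM in the treated ones, a 4.53-fold difference. These sums add mRNA levels, and neither protein nor scrambling was measured. The shares and sums take the PLSCR3 level as listed. That level is uncertain, since 76.3% of the exon bases of PLSCR3 also belong to TMEM256-PLSCR3, and its effect on the shares was not tested.

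**Figure D3:**
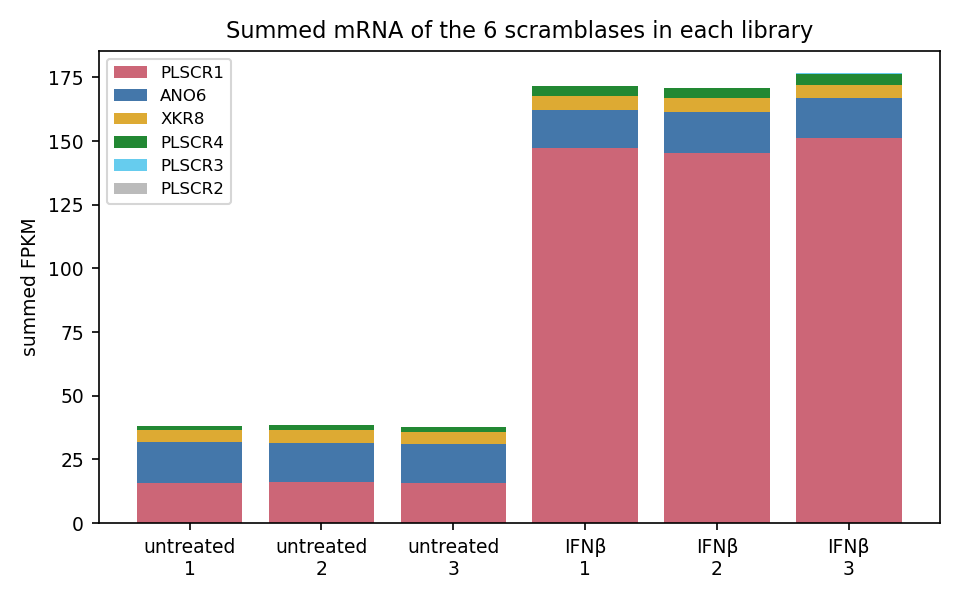
Summed FPKM of the 6 scramblases in each library, stacked by gene. The 3 untreated bars reach between 37.8 and 38.4 FPKM with PLSCR1 and ANO6 in similar parts, and the 3 IFNβ bars reach between 171 and 177 FPKM, most of it PLSCR1.

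Calls among other genes of scramblase families went in both directions. Of 22 further members of the PLSCR, XKR and anoctamin families and autophagy-linked scramblases, 13 were tested, 2 were DEGs and higher, 1 more rose by adjusted p alone and 3 fell. The shares over all genes tested were 32.7% by adjusted p, 17.5% by adjusted p and lower, and 4.22% for DEGs. Both DEGs of this list were low in level. XKR3 rose from 0.391 ± 0.0410 to 0.895 ± 0.0963 FPKM (log2 fold change 1.02, limma adjusted p = 0.0022), and ANO2, a calcium-activated chloride channel of olfactory neurons, rose 4.15-fold to 0.416 ± 0.0479 FPKM (log2 fold change 1.39, adjusted p = 0.0072). With a pseudocount of 1 the log2 fold changes were 0.44 for XKR3 and 0.36 for ANO2. XKR3 was also below the fold threshold without untreated replicate 2 (0.96) and without IFNβ replicate 1 or 2 (0.97 each). The 3 that fell were ANO10 (log2 fold change -0.19, adjusted p = 0.016), ATG9A (-0.18, adjusted p = 0.0031) and TMEM41B (-0.12, adjusted p = 0.026), the last 2 of which act in autophagy. The call of TMEM41B was lost in 7 of 16 alternatives, and that of ANO10 without IFNβ replicate 1 (-0.17, adjusted p = 0.055). ANO8 rose by 0.33 (adjusted p = 0.0091). The median log2 fold change of the 13 was -0.00.

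Among the P4-ATPases, most of which need TMEM30A, calls went in both directions. Of 16 P4-ATPases and CDC50 subunits, 11 were tested, 3 rose and 2 fell by adjusted p, and 1 of those that rose was a DEG. Over all genes tested, 32.7% passed by adjusted p, 17.5% passed and were lower, and 4.22% were DEGs. ATP11B, a phosphatidylserine flippase, fell by 0.09 on the log2 scale (15.5 ± 0.167 to 14.6 ± 0.279 FPKM, limma adjusted p = 0.032), a call that was lost in 8 of 16 alternatives. ATP11A, a phosphatidylserine flippase of the plasma membrane, had a log2 fold change of -0.09 (adjusted p = 0.32). ATP8B2 rose by 0.19 (17.2 ± 0.231 to 19.6 ± 0.189 FPKM, adjusted p = 8.6e-04) and ATP10D by 0.38 (adjusted p = 0.0043). ATP10A, a phosphatidylcholine flippase, was the DEG, at 0.0176 ± 0.00499 FPKM in untreated cells and 0.250 ± 0.0217 FPKM after IFNβ (log2 fold change 1.57, adjusted p = 0.0038), on between 9 and 150 fragments per library. The ratio of its means was 14.2, and its log2 fold change was 0.30 with a pseudocount of 1, 3.25 with a pseudocount of 0.01 and 3.83 by limma-voom on the recovered fragments. It passed the filter only through its treated libraries, so that it had to differ. The summed level of the 14 P4-ATPases was 73.5 ± 1.11 FPKM in untreated cells and 77.1 ± 1.21 FPKM after IFNβ, a ratio of 1.05, beside the ratio of 0.826 for TMEM30A. The difference between these ratios was not tested.

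XKR8 needs a chaperone, basigin (BSG) or neuroplastin (NPTN), to reach the plasma membrane. BSG rose by 0.17 on the log2 scale (82.6 ± 0.733 to 93.2 ± 0.230 FPKM, limma adjusted p = 3.1e-04), higher in 3 of 3 treated libraries than in any untreated one. NPTN did not pass the test, with a log2 fold change of 0.06.

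Phosphatidylserine synthesis and transfer genes moved by less than 0.3 on the log2 scale. Of 5 genes, PTDSS1, which makes phosphatidylserine from phosphatidylcholine, fell by 0.13 (adjusted p = 0.0095, and 0.057 with eBayes without trend) and OSBPL8, which carries it to the plasma membrane, fell by 0.13 (limma adjusted p = 0.0051). OSBPL5, with the same role, had a log2 fold change of 0.28 (adjusted p = 0.024), and its call was lost in 7 of 16 alternatives, with adjusted p-values up to 0.078.

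Among proteins that bind exposed phosphatidylserine, 2 of 5 rose and 1 fell by adjusted p. Over all genes tested, 32.7% passed by adjusted p in either direction, and 17.5% passed and were lower. GAS6, the bridge to the TAM receptors, rose from 35.0 ± 0.487 to 53.5 ± 2.06 FPKM (log2 fold change 0.61, limma adjusted p = 3.5e-05), and MFGE8, the bridge to integrins, rose by 0.38 (adjusted p = 0.0036). ANXA5, which binds phosphatidylserine directly, fell from 203 ± 4.11 to 155 ± 2.97 FPKM (log2 fold change -0.39, adjusted p = 6.5e-05). Of 14 receptors for phosphatidylserine or its bridges, 7 were tested and 2 fell by adjusted p, beside the same 17.5% of all genes that were lower. TYRO3, a TAM receptor, fell from 9.13 ± 0.119 to 6.35 ± 0.203 FPKM (log2 fold change -0.52, adjusted p = 8.9e-05), and the integrin ITGAV fell by 0.15 (adjusted p = 0.014, and 0.052 with eBayes without trend). AXL, the TAM receptor with the highest level, had 192 ± 7.14 and 184 ± 3.20 FPKM (adjusted p = 0.18), and CD300A was listed at 0 in all libraries.

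Over these 6 lists of the pathway, 46 of 67 genes were tested. DEGs numbered 4, all higher, among them ATP10A, which had to differ to be tested, beside 4.22% of all genes tested. By adjusted p, 22 of the 46 passed, 12 higher with these 4 included and 10 lower, beside 32.7% of all genes tested. The median log2 fold change was -0.00. Of the 18 that passed only by adjusted p, 12 did so in every alternative in which they were tested.

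**Figure D4:**
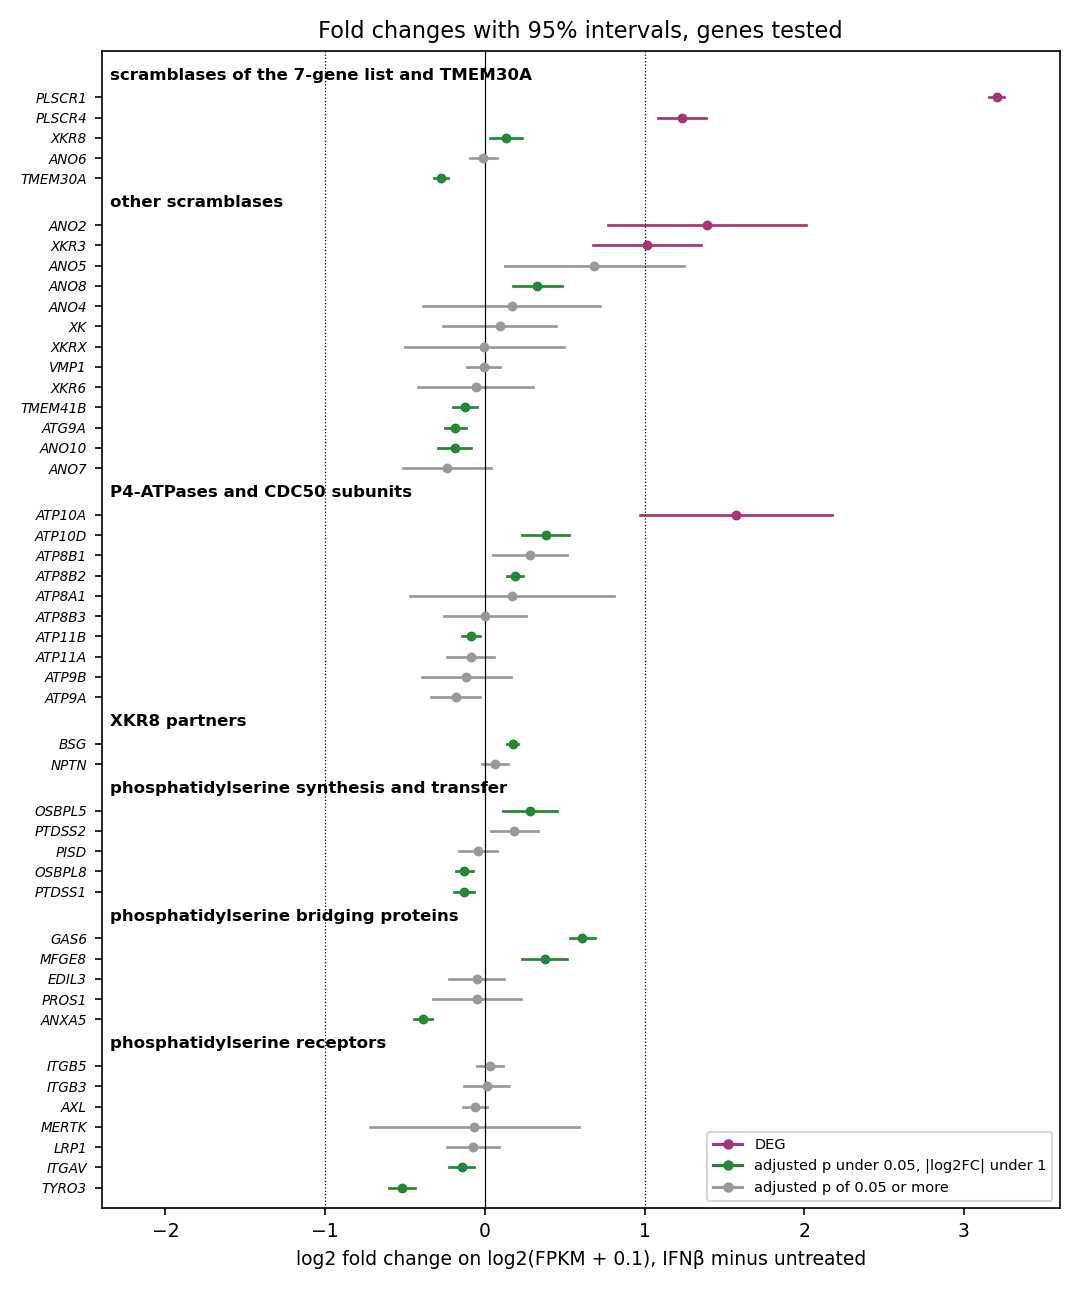
Log2 fold change on log2(FPKM + 0.1), IFNβ minus untreated, with 95% intervals for tested genes of the pathway, grouped by role and coloured by call; the dotted lines mark a log2 fold change of 1 in either direction. On this scale PLSCR1 lies furthest to the right, at 3.21, while ATP10A, drawn at 1.57, was above it with a pseudocount of 0.01 (3.25 against 3.21) and by limma-voom (3.83 against 3.21). The intervals of ANO2, XKR3 and ATP10A reach below 1, and the genes that were not DEGs have values within the dotted lines.

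The genes whose values over the 6 libraries lay nearest to those of PLSCR1, as log2(FPKM + 0.1) relative to the untreated mean and among 11985 genes with a mean of at least 1 FPKM, were SP110, GBP1, C1S, CTSS and STAT2. Their log2 fold changes were 3.21, 3.29, 3.27, 3.25 and 3.35, and their Euclidean distances from PLSCR1 were between 0.116 and 0.263. STAT2 is a subunit of the factor that carries type I interferon signals to the nucleus, GBP1 is an interferon-induced GTPase, C1S is a complement protease and CTSS is a lysosomal protease. The 5 nearest to PLSCR4 were RAB43, ENDOD1, TRIM25, CSF1 and MASTL, with log2 fold changes between 1.20 and 1.24 and distances between 0.123 and 0.156. These distances mostly restate the size of the fold change, because the 6 libraries form only 2 groups.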

How the data were processed

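RNA was extracted from HT1080 cells and sequenced in pairs of reads. The authors deposited FPKM per Ensembl gene and library. Per the labels, fastp, HISAT2, StringTie and GRCh38 were used, with versions, annotation and strand not given in the sources used here. IDs were paired with symbols for 62639 of 62710 genes, and 4436 IDs are not in GENCODE release 29, from which locations were taken. Since FPKM came in whole steps, fragments could be recovered for all 35303 genes above 0. In a gene of 1 kb, each fragment added between 0.0304 and 0.0438 FPKM, and such steps cover counting error only. Pairs of libraries within a group differed by more than counting error (chi-square per gene 1.78 to 3.38).

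The paper's test was made for counts, so groups (3 untreated, 3 IFNβ-treated) were compared with limma 3.58.1 (R 4.3.3; lmFit and eBayes with trend, no covariate) on log2(FPKM + 0.1). Genes had to average 0.1 FPKM or more, with Benjamini-Hochberg adjustment over all genes tested. These fold changes understate those of low genes. DEGs had an adjusted p under 0.05 and a log2 change of 1 or more in either direction. Ratios and shares were compared by exact permutation. The procedure was tested on simulated data. Python 3.11.15 with pandas 2.3.3, numpy 2.4.6, scipy 1.17.1 and, for the alignment, Biopython 1.88 did the rest.

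The members, lists and tests were chosen with earlier results of these data known. Of each list, every DEG (up to 6) and up to 4 further genes with an adjusted p under 0.05 are named, as are genes at 0 in all libraries, exon neighbours and, for each DEG among the members, the 5 nearest patterns; ATP11A, AXL and NPTN were named after their values were seen. Some listed genes count in the totals and are not reported here. Alternatives were pseudocounts of 1 and 0.01, no filter or a mean FPKM of at least 1, 3 rescalings, eBayes without trend, a replicate block, each library left out, limma-voom on the recovered fragments, an adjusted p under 0.01 and no fold threshold. The alignment, the repeat GAAANGAAA and the shared exon bases of PLSCR3 were added after the data had been seen. Exon bases shared by members and other genes were otherwise few: 304 of PLSCR2 with AC069528.1, 48 of PLSCR3 with TNK1, 34 of XKR8 with AL512288.1 and 55 of ANO6 with PLEKHA8P1.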

Additional observations from a re-analysis of the deposited data

How the results depend on the processing

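The members had 2 DEGs in every fit except that with a pseudocount of 1, which left 1 DEG, higher. With no fold threshold, 4 members were called. With a pseudocount of 1, DEGs numbered 304 among all genes (278 higher) and 0 among the pathway genes (0 higher). At that pseudocount, limma still gave an unadjusted p under 0.05 to 26 of 46 pathway genes and an adjusted one to 22. In a separate fit on the recovered fragments, limma-voom called 5 pathway genes, among them ANO5 (log2 fold change 1.22, limma-voom adjusted p = 1.5e-05), which was not called in the main fit. With a mean FPKM of at least 1, DEGs numbered 425 (365 higher) and 1 (1 higher), since fewer genes were tested. With no fold threshold, they numbered 6778 (3153 higher) and 22 (12 higher).

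When 1 library was left out, DEGs numbered between 809 and 867 among all genes (643 to 724 higher), 2 among the members (2 higher), and between 3 and 4 among the pathway genes (3 to 4 higher). The log2 ratio differences of PLSCR1 were then 1.47 to 2.79 against PLSCR3, 1.90 to 1.96 against PLSCR4, 3.05 to 3.10 against XKR8, 3.19 to 3.26 against ANO6 and 3.48 to 3.50 against TMEM30A, and its share of the PLSCR level differed by 6.87 to 7.12 percentage points. Leaving out 1 library also ended the adjusted p calls of ATP11B (untreated replicates 1, 2 and 3 and IFNβ replicates 1 and 3), TMEM41B (untreated replicates 1, 2 and 3 and IFNβ replicates 1 and 2), OSBPL5 (untreated replicates 1 and 2 and each IFNβ replicate) and ANO10 (IFNβ replicate 1), with adjusted p-values of at most 0.10, 0.074, 0.078 and 0.055. Without the trend in eBayes, PTDSS1 (adjusted p = 0.057) and ITGAV (0.052) lost theirs, as did ATP11B and TMEM41B, and rescaling to equal FPKM totals ended those of ATP11B and TMEM41B and quantile normalization that of OSBPL5. No member or pathway gene with a call changed direction. Deviations from the group means had correlations of 0.05, -0.02 and 0.12 between same-numbered libraries, and of -0.15 to 0.099 between differently numbered ones. With deviations from means of only 3 libraries, these values cannot settle whether the replicate numbers pair the libraries. With the replicate block, 2 members and 829 of all genes were called DEGs, and XKR8 (adjusted p = 0.064), ATP11B and OSBPL5 lost their adjusted p calls. The cause of these shifts was not tested. Few fragments lay behind PLSCR2 and PLSCR3, which limits what can be said of them, as of any gene near 0.1 FPKM. The reason for their low levels was not tested.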

Other observations

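PLSCR3 was not alone among genes that share most of their exon bases with another gene. Of 253 protein-coding genes with at least 75% of their exon bases inside 1 other protein-coding gene on the same strand, 224 (88.5%) had a mean under 0.1 FPKM, whereas 6870 of the 19602 other protein-coding genes (35.0%) did. The exons are those of GENCODE release 29, and whether the sharing lowered the level of PLSCR3 was not tested.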
